A study of Mus musculus with 24 samples.

Results

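Ribosome biogenesis genes were read in liver and white adipose of mice carrying the human clock gene PER1, either with serine (S714 control) or with glycine (S714G) at one residue. The group held 33 named genes for ribosomal RNA transcription, small nucleolar ribonucleoproteins and the assembly of both ribosomal subunits, of 34844 gene names and unnamed probes on the array. All 33 were on the array, each read from the brightest probe bearing its symbol, and all 33 were well above background on every one of the 24 arrays, so no member was lost to a filter on dim signals. Every mouse was a male of C57BL/6 background, 2 months old, kept in light-dark cycles for 10 days, and the controls carried the human gene too. Per the labels, tissue was taken at ZT1 or ZT13, that is 1 h or 13 h after lights on, which gave 8 groups of 3 arrays: liver and white adipose, each from S714 controls and S714G mice at both times. The sources used here did not give the promoter, copy number or insertion site of the human gene, nor the adipose depot.

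Ribosomes are assembled in the nucleolus, where RNA polymerase I transcribes the ribosomal RNA precursor. Small nucleolar ribonucleoproteins guide its methylation, pseudouridylation and cleavage, and separate sets of factors build the small and the large subunit. In liver, ribosome production is known to follow the daily feeding cycle, and many of these genes are known targets of MYC and of the clock's E-box factors.

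Values are log2 signal minus the 75th percentile of the same array, so 1 unit is a doubling, and levels were compared only within a probe. Differences are given ± SE from limma fits over the 12 arrays of a tissue, and a gene was called where p adjusted by Benjamini-Hochberg over all genes tested was under 0.05. The arrays lay on 3 slides, which followed the groups closely. Slide 1 held all control arrays at ZT1 of both tissues, while liver of S714G mice at ZT1 lay on slide 2 and both S714G groups at ZT13 on slide 3. Only 2 groups were split between slides: S714G adipose at ZT1 (replicates 1 and 2 on slide 1, replicate 3 on slide 2) and control liver at ZT13 (replicate 1 on slide 2, the others on slide 3). For time, the groups compared shared no slide in either genotype of either tissue. The same held for the genotype difference in liver at ZT1 and in adipose at ZT13. All these differences were therefore also differences between slides. Counts called within a tissue are given with slide in the fit too, as a fixed and as a random block. The shares of all genes beside those counts are shares called. Where no share of all genes at an unadjusted p stands beside it, an unadjusted count is not read as a result.

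Tissue identity was checked with fixed marker lists. All 10 hepatocyte markers were well above background on every liver array, with a summed linear signal of 1143 to 2150 times the 75th percentile. On adipose arrays the same sum ran from 1.90 (S714G ZT1 replicate 2) to 584 (control ZT1 replicate 2), with 7 to 10 markers above background, so hepatocyte transcripts varied widely between adipose samples and control ZT1 replicate 2 stood apart. All 10 adipocyte markers were above background on every adipose array, with sums of 667 to 1076. In liver groups 7 to 8 of them were above background on all 3 arrays, with sums of 141 to 384. S714G adipose at ZT1 was the least uniform group: replicates 1 and 3 correlated at r = 0.901 over genes, replicates 2 and 3 at 0.930 and replicates 1 and 2 at 0.941, against 0.953 to 0.994 for all pairs in the other groups. The clock differed between genotypes: Arntl, encoding the clock activator BMAL1, averaged 0.93 ± 0.25 (SD, n = 3) at ZT1 and -2.34 ± 0.41 at ZT13 in control liver, and -1.80 ± 0.08 and 1.57 ± 0.13 in S714G liver.

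In control liver, 17 of the 33 genes rose from ZT1 to ZT13, 2 fell and 14 were not called. Of 21825 genes tested, 51.1% were called, 21.2% higher and 30.0% lower. The median difference of the 33 genes was 0.98, against -0.15 over all genes tested, and 26 of the 33 were above 0. Markers of other cells moved in the same comparison: 4 of 5 neutrophil, 3 of 8 macrophage and 3 of 3 skeletal muscle markers tested fell, and 1 macrophage marker rose. Macrophage marker sums were 76.1 to 87.7 at ZT1 and 59.4 to 62.2 at ZT13, without overlap, and their part in the result was not tested. Both the gene count and this background rest on a comparison in which slide and time moved together. The largest differences were those of Polr1b, Nop58, Wdr75, Rrn3, Gnl3 and Nop14, which span ribosomal RNA transcription, snoRNPs and both subunits.

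**Figure D1:**
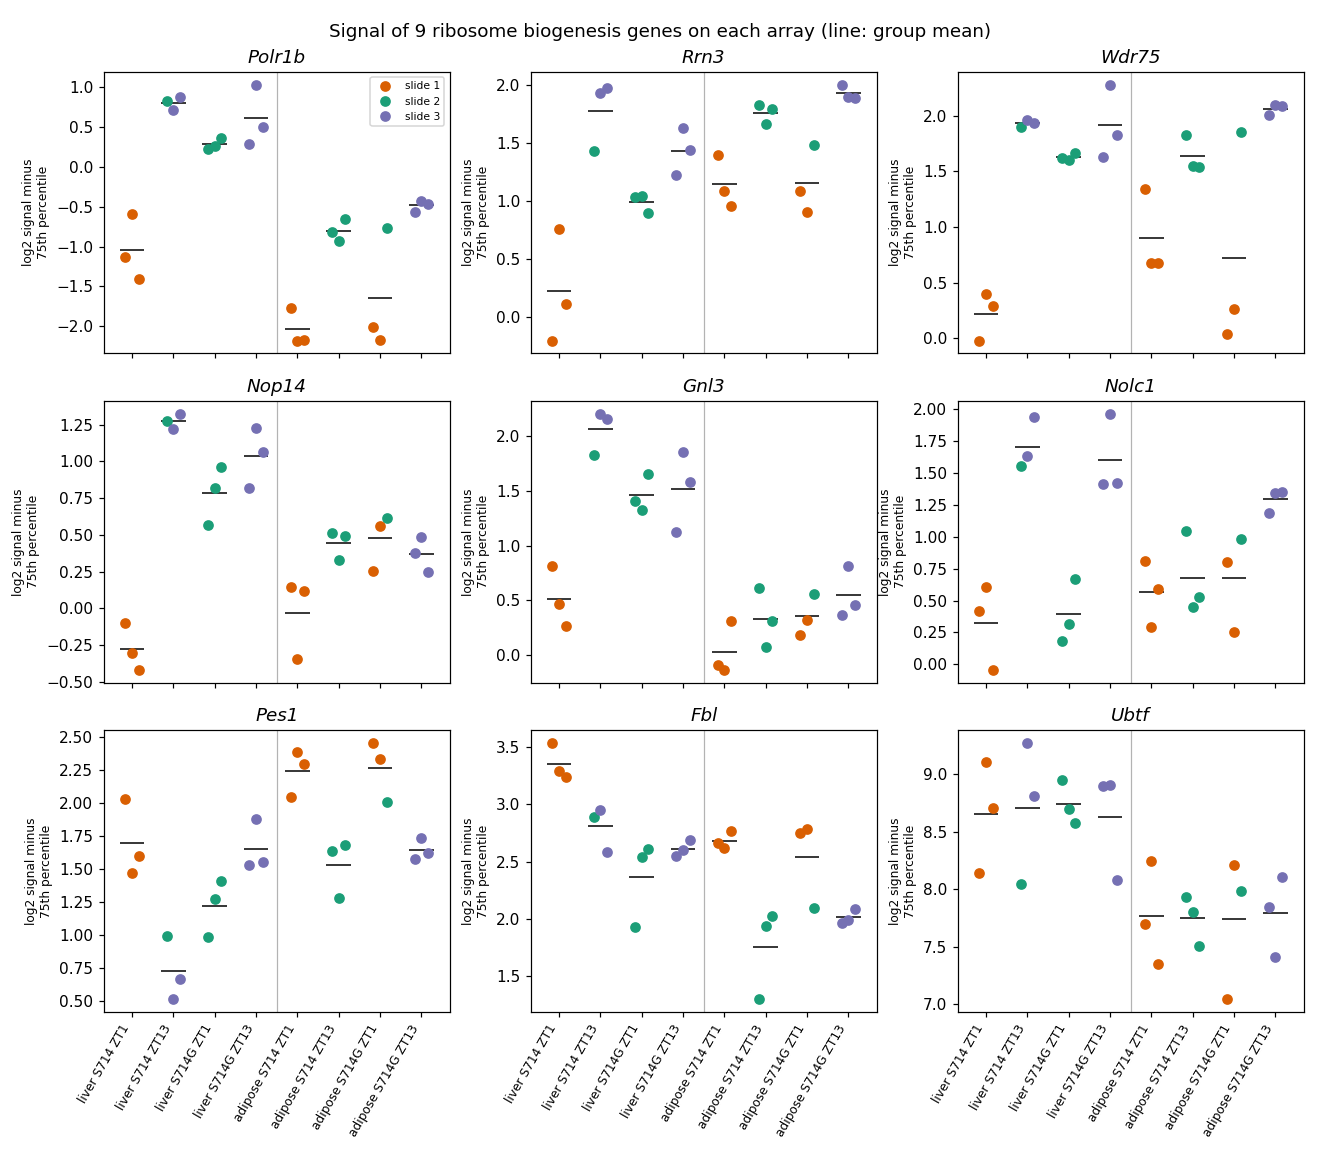
Log2 signal minus the array's 75th percentile (vertical axes, each scaled to its gene) for 9 members on each of the 24 arrays, by group, with points coloured by slide and lines at group means. Polr1b, Rrn3, Wdr75, Nop14 and Gnl3 are lowest in liver on the slide 1 arrays of S714 controls at ZT1, and in S714G adipose at ZT1 Wdr75 is 0.04 and 0.27 on slide 1 and 1.85 on slide 2.

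Among the 7 genes for ribosomal RNA transcription, 4 rose in control liver. Polr1b encodes the second-largest subunit of RNA polymerase I, and its probe lies at chr2:128951870-128951929 (mm9). Its signal in control liver was -1.13, -0.60 and -1.41 at ZT1 and 0.83, 0.71 and 0.87 at ZT13. The groups did not overlap, and the difference was 1.84 ± 0.22, or 3.59-fold (limma adjusted p = 0.000111). A dimmer Polr1b probe, above background on 18 of 24 arrays, gave the opposite sign (-1.90), so the direction for this gene holds for the brighter probe alone.

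Rrn3 encodes TIF-IA, the factor that makes RNA polymerase I competent to initiate (probe at chr16:13814761-13814820, mm9). It measured -0.20, 0.76 and 0.12 at ZT1 and 1.43, 1.93 and 1.97 at ZT13 in control liver, again without overlap (1.55 ± 0.24, limma adjusted p = 0.000403). The largest polymerase I subunit Polr1a rose by 0.98 ± 0.20 and the subunit Polr1e by 0.99 ± 0.28. Ubtf, the factor that keeps ribosomal genes in open chromatin, differed by 0.06 ± 0.34. Mybbp1a, a nucleolar MYB-binding protein, differed by 0.09 ± 0.17, and Tcof1, the nucleolar protein treacle, by -0.37 ± 0.14 (limma adjusted p = 0.0527).

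Of the 10 small subunit factors, 8 rose and none fell. Wdr75 encodes a subunit of the complex that joins early processing to transcription (probe at chr1:45879813-45880205, mm9). Its signals were -0.02, 0.40 and 0.29 at ZT1 and 1.89, 1.96 and 1.94 at ZT13, a difference of 1.71 ± 0.18 (limma adjusted p = 4.22e-05). Nop14, a component of the small subunit processome, measured -0.10, -0.30 and -0.42 at ZT1 and 1.27, 1.22 and 1.32 at ZT13, a difference of 1.54 ± 0.16 (limma adjusted p = 4.22e-05). Both genes were high on all 3 ZT13 arrays and low on all 3 ZT1 arrays. The others that rose were Ltv1 (1.47), Wdr43 (1.37), Tsr1 (1.32), Nob1 (1.20), Rrp12 (1.15) and Bysl (1.01), which act from early cleavage to the last cytoplasmic steps. The early factors Heatr1 (-0.29 ± 0.20) and Utp20 (-0.37 ± 0.27) were not called and lay below 0.

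Among the 8 genes of small nucleolar ribonucleoproteins and their chaperone, 3 rose and 1 fell. Nop58, a core protein of the methylation-guiding box C/D particles, rose by 1.79 ± 0.32, the U3-specific protein gene Rrp9 by 1.06 ± 0.17, and Nolc1, the chaperone Nopp140, by 1.38 ± 0.22. Rrp9 measured 0.32, 0.21 and 0.03 at ZT1 and 1.17, 1.29 and 1.28 at ZT13 (limma adjusted p = 0.000541), with no overlap. Fbl, encoding the methyltransferase fibrillarin of the same box C/D particles, went the other way: it measured 3.54, 3.29 and 3.24 at ZT1 and 2.89, 2.95 and 2.58 at ZT13, a fall of 0.55 ± 0.19 (limma adjusted p = 0.0327). The third box C/D core gene, Nop56, did not differ on its brightest probe (-0.00 ± 0.22), while its other probes gave 0.21 and 0.80. The box H/ACA genes Dkc1 (0.05), Nhp2 (0.39) and Gar1 (-0.49), whose particles guide pseudouridylation, were not called.

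Of the 6 large subunit factors, 2 rose and 1 fell. Gnl3, encoding nucleostemin, measured 0.81, 0.46 and 0.27 at ZT1 and 1.83, 2.20 and 2.15 at ZT13, a difference of 1.54 ± 0.21 (limma adjusted p = 0.000224), and the methyltransferase gene Nop2 rose by 0.88 ± 0.20. Pes1 encodes pescadillo, which works in a complex with the products of Bop1 and Wdr12. It fell from 2.03, 1.47 and 1.60 to 0.99, 0.51 and 0.67, by 0.97 ± 0.20 (limma adjusted p = 0.00209), with no overlap. The second Pes1 probe gave -0.30. The partner genes Bop1 (0.24 ± 0.16) and Wdr12 (0.33 ± 0.17) were not called. Nop16 differed by 1.12 ± 0.45 and was not called (limma adjusted p = 0.0540), with 0.60, 3.02 and 2.38 at ZT1 and 3.14, 3.14 and 3.09 at ZT13. The array design places the brightest Wdr12 probe on another chromosome than its second probe, which gave -0.21, so the Wdr12 value is uncertain. The multifunctional nucleolar genes Ncl (0.32 ± 0.18) and Npm1 (0.13 ± 0.15), encoding nucleolin and nucleophosmin, were not called, although one dimmer Npm1 probe gave 1.96.

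**Figure D2:**
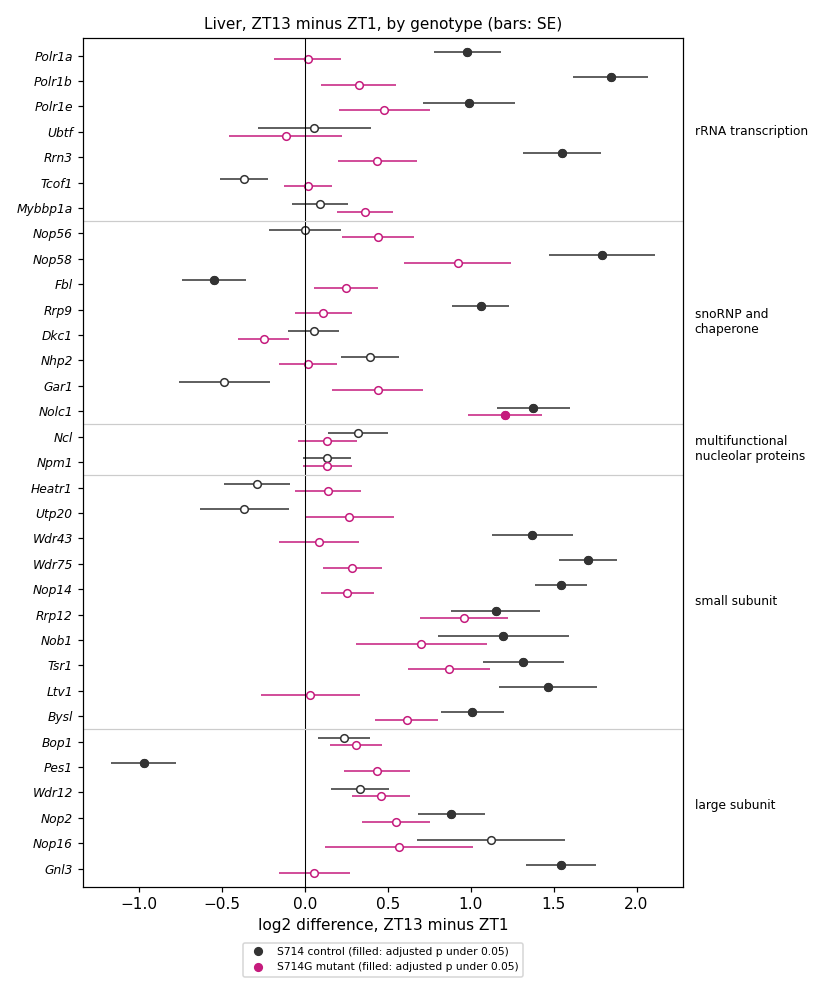
Log2 difference ZT13 minus ZT1 in liver (horizontal axis, bars SE) for the 33 members by role, in S714 control mice (grey) and S714G mice (pink), with filled points for adjusted p under 0.05. Of the controls' points 19 are filled, Polr1b at 1.84 the furthest right and Pes1 at -0.97 the furthest left, and of the S714G points Nolc1 at 1.21.

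The slide assignments bear directly on this result. With slide as a fixed block over the 24 arrays, 0 members were called in control liver (5 at an unadjusted p under 0.05) and 0.687% of all genes, with a median difference of 0.44 against 0.12 over all genes and 27 of 33 above 0. In that fit the step from slide 1 to slide 2 came from S714G adipose at ZT1 alone, Wdr75 was -0.031 ± 0.40, Polr1b 0.55 ± 0.43 and Nop14 1.33 ± 0.35 (limma adjusted p = 0.106). Of the 19 genes called without the block 15 kept their sign, and Wdr75, Ltv1, Nob1 and Fbl did not. With slide as a random block, 6 rose, namely Gnl3, Nolc1, Nop14, Nop58, Polr1b and Rrn3, all among the 17, against 5.23% of all genes called. Within S714G adipose at ZT1, where genotype, time and tissue were constant, replicate 3 on slide 2 exceeded the mean of replicates 1 and 2 on slide 1 for 15 of the 17 genes that rose in control liver (median 0.49). It did so for 3 of the other 16 members and for 8908 of 23337 genes tested in adipose (median -0.29). These 3 arrays also differed in hepatocyte marker sums (94.5, 1.90 and 57.2), and replicates 2 and 3 carried another title prefix than replicate 1. Within control liver at ZT13, the slide 3 mean exceeded the slide 2 array for 12 of the 17 genes (median 0.09). It did so for 6 of the other 16 members and for 11290 of 21732 genes tested in liver (median 0.01). The part of slide in the liver difference was not tested beyond these fits.

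**Figure D3:**
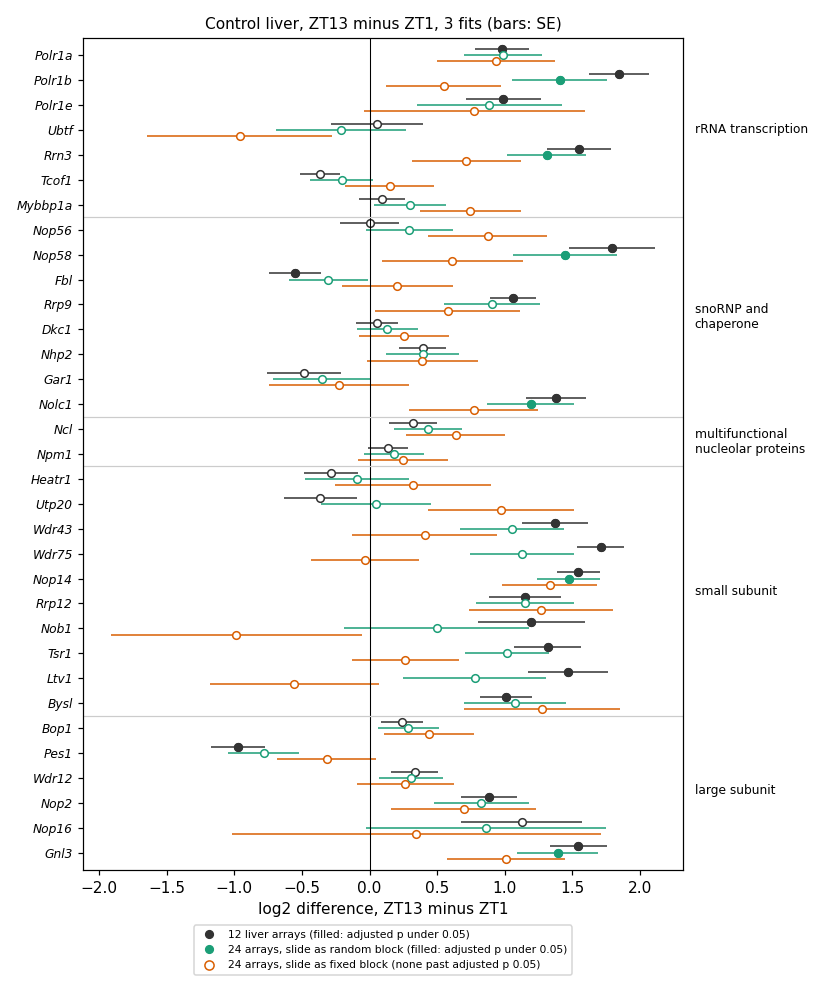
Log2 difference ZT13 minus ZT1 in control liver (horizontal axis, bars SE) for the 33 members under 3 fits: the 12 liver arrays (black), 24 arrays with slide as a random block (green) and with slide as a fixed block (orange), filled where adjusted p is under 0.05. Wdr75 moves from 1.71 to -0.031 between the first and the last, whereas Nop14 moves from 1.54 to 1.33.

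Scaling mattered for the direction of small differences. With arrays centred on the median rather than the 75th percentile, the median over all genes in control liver moved from -0.15 to 0.49, 46.8% of genes were called higher and 9.62% lower, and 26 members rose and 0 fell. The members' median lay 1.13 above that of all genes under both scalings. This equality is arithmetic, since each scaling subtracts 1 value per array and shifts all genes alike, so it is no check on the members. The falls of Fbl and Pes1 depended on the scaling: under median scaling Pes1 was -0.33 and Fbl 0.09, and neither was called. Under quantile normalization Pes1 fell by 1.05 and Fbl by 0.67 (limma adjusted p = 0.00116 and 0.00965).

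The promoters of the members were read for the E-box CACGTG, a palindrome bound by MYC and by the clock's CLOCK and BMAL1 proteins. Windows of 250 bases before to 50 bases after the start, from RefSeq on GRCm38.p6, were matched by symbol for 28 of the 33 members; Npm1, Rrp12, Bop1, Fbl and Tcof1 were not analysed here. Of these, 8 held CACGTG (28.6%), as did 8.09% of the 27025 genes in the table. Of the members that rose in control liver 5 of 16 held it (31.2%), and of the others 3 of 12. This is a description of letters, since no binding was measured. Rrn3 was the member with 2 copies, at -215 and -48 from the start, and Nop2 held 1 at -60, and they are shown from the upstream side as genes with the motif before the start, with CACGTG in capitals. Rrn3 lies on the plus strand at chr16:13780449-13780698 and Nop2 on the plus strand at chr6:125131783-125131882.
Rrn3: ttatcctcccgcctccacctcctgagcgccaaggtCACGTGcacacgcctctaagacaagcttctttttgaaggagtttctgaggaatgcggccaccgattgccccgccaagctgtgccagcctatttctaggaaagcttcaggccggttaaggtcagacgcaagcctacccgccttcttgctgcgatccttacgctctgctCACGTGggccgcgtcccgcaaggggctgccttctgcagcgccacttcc
Nop2: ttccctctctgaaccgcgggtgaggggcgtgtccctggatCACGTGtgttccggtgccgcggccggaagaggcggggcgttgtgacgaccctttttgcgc
In 4 further members the motif lay just after the start, from base 3 (Pes1), 18 (Wdr43), 25 (Tsr1) and 29 (Ltv1), and 30 bases around it are shown because Pes1 fell in control liver while the other 3 rose. Pes1 lies at chr11:3963965-3963994, Wdr43 at chr17:71616220-71616249 and Tsr1 at chr11:74898092-74898121, all on the plus strand, and Ltv1 on the minus strand at chr10:13193092-13193121.
Pes1: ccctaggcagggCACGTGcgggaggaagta
Wdr43: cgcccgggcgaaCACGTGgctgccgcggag
Tsr1: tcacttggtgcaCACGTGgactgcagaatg
Ltv1: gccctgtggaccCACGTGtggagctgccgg
Utp20 and Mybbp1a, which were not called in control liver, also held the motif after the start.

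In S714G liver, 1 of the 33 genes rose from ZT1 to ZT13 and none fell, against 1.98% of all genes called and 1.03% called higher. Nolc1 measured 0.18, 0.32 and 0.67 at ZT1 and 1.41, 1.96 and 1.42 at ZT13, without overlap, a rise of 1.21 ± 0.22 (limma adjusted p = 0.0199). The next by p were Rrp12 (0.96 ± 0.27), Tsr1 (0.87 ± 0.25), Bysl (0.61 ± 0.19) and Nop58 (0.92 ± 0.32), whose adjusted p from limma ran from 0.101 to 0.197. Of the 33 differences 31 were above 0, with a median of 0.31 against 0.04 over all genes. For 14 members all ZT13 arrays lay above all ZT1 arrays, as for 16.7% of genes. The ZT1 arrays lay on slide 2 and the ZT13 arrays on slide 3. With slide as a fixed block 26 of 33 were above 0. The Nolc1 call was lost with slide as a random block (1.17, limma adjusted p = 0.191) or a fixed block (0.97, adjusted p = 0.617), and on leaving out any array of S714G liver other than ZT1 replicate 3 (limma adjusted p 0.0543 to 0.0939).

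At ZT1, 9 of the 33 genes were higher in S714G liver than in control liver and 4 were lower, against 45.3% of genes called, 17.7% higher and 27.5% lower. This comparison shares the control ZT1 arrays with the time comparison above, and those arrays were on slide 1 and the S714G arrays on slide 2. Of the hepatocyte markers 4 of 10 were lower in S714G liver, with sums of 1928 to 2069 in controls and 1414 to 1426 in S714G mice, without overlap. Of the macrophage markers 3 of 8 were called higher in S714G liver. Their summed signal was lower there, at 66.7 to 75.1 against 76.1 to 87.7 in controls, without overlap. The part of either marker set was not tested. Ltv1, a late factor of the small subunit, measured -0.02, 1.37 and 0.80 in controls and 2.00, 2.21 and 2.27 in S714G liver, with a difference of 1.44 ± 0.30 (limma adjusted p = 0.00301). Wdr75 was 1.62, 1.60 and 1.66 in S714G liver, 1.40 ± 0.18 above the controls listed before (limma adjusted p = 0.000219). Polr1b was 0.23, 0.26 and 0.36, a difference of 1.33 ± 0.22 (limma adjusted p = 0.00107), and its dimmer probe gave -1.16. Nop14 was 0.57, 0.82 and 0.96, a difference of 1.05 ± 0.16 (limma adjusted p = 0.000588). In each of these genes the 3 S714G arrays lay above all 3 control arrays.

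The other 5 higher genes at ZT1 were Gnl3 (0.95), Wdr43 (0.91), Rrp9 (0.89), Polr1e (0.77) and Rrn3 (0.77). Rrp9 was 0.90, 1.09 and 1.24 in S714G liver, also without overlap (limma adjusted p = 0.00207). The 4 lower genes were of the snoRNP set, Fbl (-0.99 ± 0.19), Gar1 (-1.07 ± 0.28) and Nop56 (-0.68 ± 0.22), and the early small subunit factor Heatr1 (-0.60 ± 0.20). The other Nop56 probes gave -0.43 and -0.024, so the size of its difference depends on the probe. Fbl measured 1.93, 2.55 and 2.61 in S714G liver, below every control array (limma adjusted p = 0.00214). With slide in the fit, as a fixed or a random block, 0 members were called, and 0.304% and 0.535% of all genes were called. At an unadjusted p under 0.05 by limma there were 1 and 5 members, and the share of all genes is not given here. In the fixed block fit Wdr75 was -0.30 ± 0.35, Ltv1 -0.68 ± 0.55 and Polr1b 0.01 ± 0.37, while Nop14 stayed at 0.84 ± 0.31 (limma adjusted p = 0.374). Under median scaling 36.3% of genes were higher and 8.34% lower, and 16 members were higher and 0 lower.

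At ZT13 the liver comparison was better placed, since 2 control and all 3 S714G arrays shared slide 3. Of the 33, 1 was called, Pes1, against 3.02% of all genes called and 1.5% called higher. Pes1 measured 0.99, 0.51 and 0.67 in control liver and 1.53, 1.88 and 1.55 in S714G liver, with all S714G arrays above all control arrays (0.93 ± 0.20, limma adjusted p = 0.0298). Within slide 3, where 4.68% of genes were called, the difference was 1.06 ± 0.16 (limma adjusted p = 0.0301) and with slide as a fixed block 1.06 ± 0.20 (adjusted p = 0.00632). The second Pes1 probe gave 0.43. The call was lost on leaving out control replicate 2 or 3 or any S714G replicate at ZT13 (differences 0.82 to 0.99, limma adjusted p 0.0800 to 0.126), and under median scaling (0.89, adjusted p = 0.0701).

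The other 32 members did not pass at ZT13. They lay between -0.54 ± 0.21 (Gnl3, limma adjusted p = 0.249) and 0.25 ± 0.28 (Polr1e), and 25 of the 33 were below 0, with a median of -0.14 against 0.02 over all genes.

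**Figure D4:**
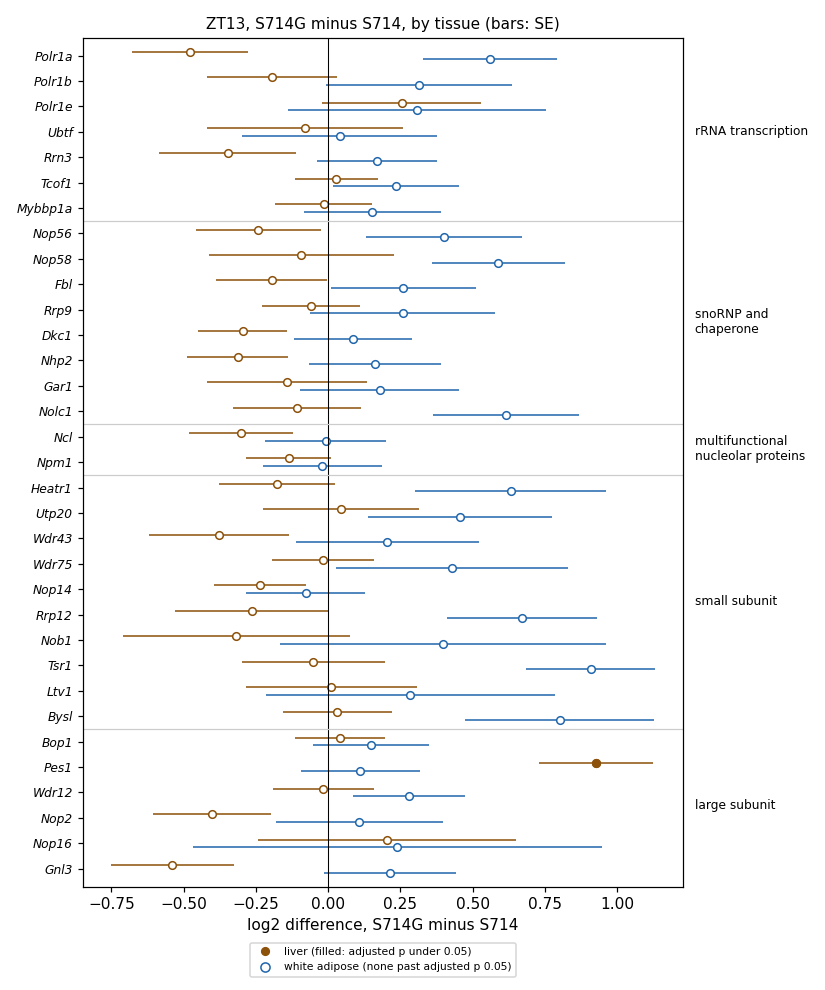
Log2 difference S714G minus S714 control at ZT13 (horizontal axis, bars SE) for the 33 members by role, in liver (brown) and white adipose (blue), with filled points for adjusted p under 0.05. Pes1 in liver at 0.93 is the filled point. Adipose points lie right of 0 for 30 genes and liver points left of 0 for 25.

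In liver 11 of the 33 genes were called for the interaction term, the S714G change minus the control change. Of all genes 31.2% were called, a share near that of the members. Of the 11 members 9 were negative and 2 positive, against 12.9% of all genes negative and 18.3% positive. The most negative were Polr1b (-1.52 ± 0.32, limma adjusted p = 0.00594), Gnl3 (-1.49 ± 0.30, 0.00515), Ltv1 (-1.43 ± 0.42, 0.0247), Wdr75 (-1.42 ± 0.25, 0.00255) and Nop14 (-1.29 ± 0.23, 0.00252). The dimmer Polr1b probe gave 1.23, the opposite sign. The positive ones were Pes1 (1.41 ± 0.28, limma adjusted p = 0.00476) and Fbl (0.80 ± 0.27, adjusted p = 0.0447). The second Pes1 probe gave 0.39. In control liver Polr1b, Gnl3, Ltv1, Wdr75 and Nop14 rose by 1.47 to 1.84, and in S714G liver their differences were 0.03 to 0.32 and not called. For Nolc1, Rrp12 and Bysl, which rose in control liver by 1.01 to 1.38, the interaction was -0.40 to -0.17 and not called. Slide enters this term too: with slide as a fixed block 0 members were called (4 at an unadjusted p under 0.05, 1.04% of all genes called). With slide as a random block there were 2, Nop14 (-1.19 ± 0.30, limma adjusted p = 0.0481) and Pes1 (1.33 ± 0.34, adjusted p = 0.0471), against 1.76% of genes. The count fell to 7 without S714G ZT1 replicate 2 or S714G ZT13 replicate 1. Under median scaling, 0 members were positive and 14 negative (5.45% and 26.9% of genes).

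In white adipose of control mice, 2 members rose and 2 fell from ZT1 to ZT13, against 15.1% of genes called, 6.21% higher and 8.91% lower. Polr1b measured -1.76, -2.18 and -2.17 at ZT1 and -0.81, -0.94 and -0.65 at ZT13 (1.24 ± 0.32, limma adjusted p = 0.0322), and Nop58 -1.45, -1.59 and -1.56 against -0.85, -0.73 and -0.57 (0.82 ± 0.23, adjusted p = 0.0390). Fbl measured 2.66, 2.62 and 2.77 at ZT1 and 1.30, 1.94 and 2.02 at ZT13, a fall of 0.93 ± 0.25 (limma adjusted p = 0.0350). Pes1 measured 2.05, 2.39 and 2.30 at ZT1 and 1.64, 1.28 and 1.68 at ZT13, a fall of 0.71 ± 0.21 (limma adjusted p = 0.0419). In all 4 genes the groups did not overlap. The ZT1 arrays lay on slide 1 and the ZT13 arrays on slide 2. The dimmer Polr1b probe gave -1.48, the opposite sign. These calls were fragile: 0 remained with slide as a fixed or random block (3 and 2 at an unadjusted p under 0.05, with 0.271% and 0.543% of genes called), or on leaving out control ZT1 replicate 2 or 3 or any control ZT13 replicate. The ZT1 group included the array with the most hepatocyte signal. Hepatocyte marker sums were 117, 584 and 131 at ZT1 and 119, 31.7 and 119 at ZT13, and macrophage marker sums 64.5 to 72.7 and 35.0 to 50.3; their part in the result was not tested. Under median scaling the calls were 6 higher and 0 lower (15.7% and 2.61% of genes).

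In S714G adipose no member was called for time by limma, 11 had an unadjusted p under 0.05 (26.9% of genes), and 1.98% of genes were called. The 3 of lowest p were Rrn3 (0.77 ± 0.21), Polr1b (1.16 ± 0.32) and Nop58 (0.82 ± 0.23), with limma adjusted p of 0.0806 to 0.0865. Rrn3 measured 1.08, 0.90 and 1.48 at ZT1 and 2.00, 1.89 and 1.88 at ZT13. Polr1b measured -2.01, -2.17 and -0.77 at ZT1, where the value of replicate 3 stands near those of ZT13 (-0.56, -0.43 and -0.47), and its dimmer probe gave -1.29. Without that replicate, which alone of its group lay on slide 2, 14 members were called. The share of all genes called in that fit is not given here, so the count is not read as a result about the members. Macrophage marker sums fell between the groups from 72.9 to 111 at ZT1 to 20.7 to 31.8 at ZT13, with 6 of 8 markers called lower; their part was not tested.

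Between genotypes in adipose, no member was called at either time. At ZT1 limma called 0% of genes and the lowest member p was unadjusted 0.0233 (Polr1a, 0.61 ± 0.23, adjusted p = 0.563). There were 4 members with an unadjusted p under 0.05 by limma (7.86% of genes), Polr1a, Nop58 (0.59), Nop14 (0.50) and Tsr1 (0.55). Polr1a was -0.27, -0.29 and 0.18 in controls and 0.85, 0.22 and 0.38 in S714G mice. Nop58 was -1.22, -1.17 and -0.44 in S714G mice and Nop14 0.25, 0.56 and 0.62, against 0.15, -0.34 and 0.12 in controls. In all 4 genes every S714G array lay above every control array, as for 3.43% of all genes. Within slide 1, 3 controls against 2 S714G arrays, 0 were called (2 at an unadjusted p under 0.05).

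At ZT13 in adipose 0.0428% of genes were called and no member (6 at an unadjusted p under 0.05, as 4.81% of genes), yet 30 of the 33 differences were above 0. The members' median was 0.26, against 0.06 over all genes, and for 20 of 33 all S714G arrays lay above all control arrays, as for 15.2% of genes. Tsr1, a late factor of the small subunit, measured -0.50, -0.95 and -0.69 in controls and 0.15, 0.18 and 0.26 in S714G adipose (0.91 ± 0.22, limma adjusted p = 0.372). Rrp12, which takes part in subunit export, measured -1.45, -2.17 and -1.79 and -1.29, -1.02 and -1.09 (0.67 ± 0.26, limma adjusted p = 0.886). Nop58 measured -0.85, -0.73 and -0.57 and -0.03, -0.06 and -0.29 (0.59 ± 0.23, limma adjusted p = 0.898). The 3 genes were without overlap, with the S714G arrays high. The control arrays lay on slide 2 and the S714G arrays on slide 3, and with slide as a fixed block 23 of 33 were above 0, with a median of 0.27 against 0.03 over all genes, and Nop58 was -0.050. Hepatocyte marker sums were 31.7 to 119 in controls and 21.4 to 62.7 in S714G mice, and macrophage marker sums 35.0 to 50.3 and 20.7 to 31.8; their part was not tested.

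Neither the genotype by time interaction in adipose nor the difference of the genotype effect between tissues was called for any member. For the adipose interaction 0.124% of genes were called, 1 member had an unadjusted p under 0.05, as had 6.99% of genes (Rrp12, 1.0 ± 0.37, limma adjusted p = 0.593), and Nop14 was -0.58 ± 0.29 and Heatr1 0.85 ± 0.47. For the genotype effect at ZT1, liver minus adipose, 1.41% of genes and 0 members were called by limma (7 at an unadjusted p under 0.05, as 23.6% of genes). The lowest p were those of Ltv1, Wdr75 and Fbl, and 7 members were called without S714G adipose ZT1 replicate 3. The share of all genes called in that last fit is not given here. At ZT13, 0.214% of genes and 0 members were called (6 at an unadjusted p under 0.05, as 6.44% of genes), but 32 of 33 differences were below 0, with a median of -0.44 against -0.05 over all genes. Pes1 was the exception, at 0.82.

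Averaged over the 4 groups of each tissue, 18 members were higher in liver than in white adipose and 4 were lower, against 75.4% of genes called, 41.9% higher and 33.5% lower. The share of members called was thus close to that of all genes. In bulk tissue, more cells of a type and more RNA per cell cannot be told apart. Nop16, a large subunit factor, was 1.71 ± 0.32 higher in liver, Polr1b 1.40 ± 0.14 and Gnl3 1.07 ± 0.11 (limma adjusted p = 2.48e-08 for Gnl3). Gnl3 ranged from 0.27 to 2.20 with a median of 1.49 on the 12 liver arrays and from -0.13 to 0.81 with a median of 0.32 on the 12 adipose arrays, and overlapped only through the control ZT1 liver arrays. Npm1 ran from 5.49 to 6.06 in liver and from 4.77 to 5.43 in adipose, with no overlap (0.81 ± 0.08, limma adjusted p = 2.78e-08). Nhp2 ran from 2.46 to 3.26 and from 1.89 to 2.74 with overlap (0.60 ± 0.10, limma adjusted p = 1.60e-05).

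Tcof1 was the clearest member on the adipose side, at 2.22 to 2.92 in liver and 3.31 to 4.02 in adipose, with no overlap (-1.17 ± 0.09, limma adjusted p = 2.12e-10), and its second probe gave -1.21. Pes1 (-0.60 ± 0.10), Rrn3 (-0.39 ± 0.11) and Polr1a (-0.24 ± 0.11) were the others lower in liver. The second probes disagreed in sign for Pes1 (0.79), Ubtf (-0.40 against 0.92) and Ncl (-0.57 against 0.42), so the tissue direction of these 3 genes depends on the probe. This comparison was little touched by slide, since each slide held both tissues: 19 members were called with slide as a fixed block (74.3% of genes) and 22 with it as a random block (75.6%). Quantile normalization moved all genes by more: 12 members were then higher and 6 lower, against 32.9% and 37.5% of genes.

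**Figure D5:**
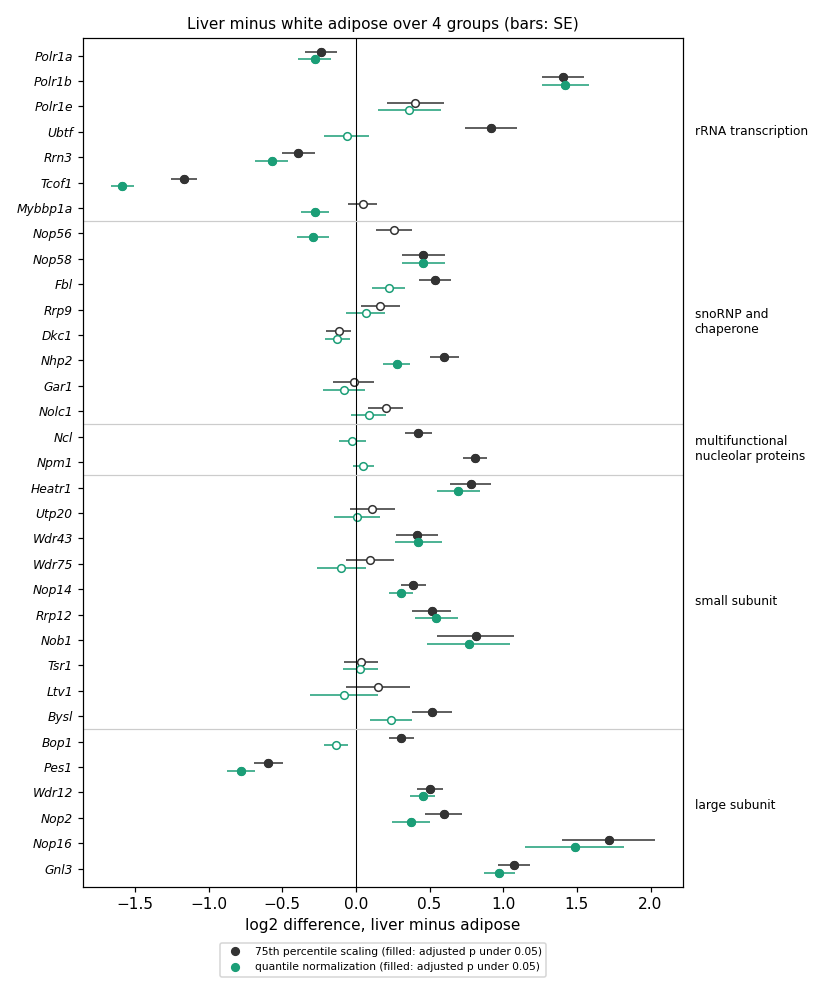
Log2 difference liver minus white adipose over 4 groups (horizontal axis, bars SE) for the 33 members by role, with 75th percentile scaling (black) and quantile normalization (green), filled where adjusted p is under 0.05. Nop16 (1.71) and Polr1b (1.40) lie furthest to the liver side and Tcof1 (-1.17) furthest to the adipose side.

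A second fixed list of 96 further genes of the pathway on the array was read in the same way. In control liver 41 of the 93 tested rose from ZT1 to ZT13 and 2 fell (46.2% of the list, 51.1% of all genes). Among those of lowest p were Nol8 (2.06, limma adjusted p = 3.23e-05), Ddx51 (1.53) and Urb1 (2.24), which serve the large subunit. In S714G liver 1 rose and 1 fell (1.98% of all genes called): the polymerase I terminator gene Ttf1 (0.86) and the initiation factor gene Taf1b (-0.88). At ZT1 27 were higher in S714G liver and 10 lower, or 39.8% of the list against 45.3% of all genes. At ZT13 none was called, with 1 higher and 3 lower at an unadjusted p under 0.05 by limma. In control adipose 11 rose and 4 fell (16% of the list, 15.1% of all genes), and in S714G adipose Urb2 alone rose (1.98% of all genes called). Between genotypes in adipose at ZT13, 80 of 94 were above 0, and 36 had all S714G arrays above all control arrays (15.2% of all genes). None was called (0.0428% of all genes), and the control arrays lay on slide 2 and the S714G arrays on slide 3. In the tissue comparison 58 were higher in liver and 10 lower (72.3% of the list, 75.4% of all genes). With slide as a fixed block limma called 0 of the list for time in control liver (9 at an unadjusted p under 0.05), at ZT1 in liver (6) or for time in control adipose (5). As a random block it called 5 for time in control liver, Gnl2, Gnl3l, Noc2l, Nol8 and Urb1, and 0 in the other 2 comparisons (10 and 11 at an unadjusted p under 0.05). Neither block left a call for time in S714G liver or S714G adipose.

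Myc, Mycn and Mycl1, which encode transcription factors that drive ribosome biogenesis genes, were read as a reference. They were part of a longer fixed list of the family, whose other genes are not given by value here. In liver at ZT1, without slide in the fit, 4 of the 9 list genes tested were higher in S714G mice and 1 was lower. Of all genes 17.7% were higher and 27.5% lower. Myc averaged -1.81 ± 0.54 (SD, n = 3) in control liver at ZT1 and -0.24 ± 0.92 at ZT13, a difference of 1.57 ± 0.75 (SE) that was not called (limma adjusted p = 0.0990). Mycn rose in control liver by 2.19 ± 0.42 (limma adjusted p = 0.00141), although 1 of the 3 ZT1 arrays was not well above background, so its size is uncertain. With slide as a random block it was 2.26 ± 0.52 (limma adjusted p = 0.0157) and as a fixed block 2.62 ± 0.76 (adjusted p = 0.154). Mycl1 was not well above background on any control liver array at ZT1, and was at least 13-fold higher at ZT13. It was at least 10.9-fold higher in S714G liver than in control liver at ZT1. These bounds set the mean of the brighter group against the lowest signal well above background on each dim array, or the probe's own signal where that was higher. With slide in the fit neither of these bounded Mycl1 differences was called (limma adjusted p 0.162 to 0.954). Mycl1 also differed between genotypes in liver at ZT13 (-1.17 ± 0.24, limma adjusted p = 0.0237) and rose in control adipose (6.42 ± 1.25, adjusted p = 0.0176). Its liver interaction was -5.21 ± 0.34 (limma adjusted p = 7.11e-06), of uncertain size because of the dim ZT1 arrays. These calls too were lost with slide as a fixed or random block (limma adjusted p 0.0792 to 0.851).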

How the data were processed

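Labelled RNA from each sample was hybridised alone to a mouse expression array of 62976 spots, and scanned and extracted with Agilent Feature Extraction 10.7.3.1, per the file headers. The processed intensity of each spot, already background-subtracted, and its flags for background, saturation and outliers were used as deposited by the authors. The deposited value table holds log2 values made by the authors and served as an alternative, and probe positions on mm9 come from the deposited files.

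From these, control and outlier spots were dropped, spots of a probe averaged, and log2 intensity taken minus the array's 75th percentile. Genes were read from their brightest probe (13 members have several) and tested where well above background on all 3 arrays of a group: 21826 genes in liver, 23369 in adipose and 24321 in both. Cell-means models were fitted with limma 3.58.1 in R 4.3.3 and p-values adjusted by Benjamini-Hochberg over all genes. There were 13 comparisons. Scripts were tested on simulated data.

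The members and the lists were chosen with earlier results of these data known. All members are accounted for. Values per array were given for members past adjusted p of 0.05, at most the 6 of lowest p in a comparison, or for the 3 of lowest p where none passed. Fbl, Pes1 and Ltv1 were added for their direction or promoter after their values were seen. Values of Nop16 in control liver, where it was not called, were given outside this rule too. The labels call the arrays independent repeats without saying whether liver and adipose came from the same mice, and 3 arrays a group limit the precision: an exact permutation test of 3 against 3 cannot go below p = 0.1.

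Alternatives covered background correction, scaling, the filter, the choice of probe, slide, replicate number and leaving out each array. Leaving out 3 adipose arrays with another title prefix was chosen after seeing the data.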

Additional observations from a re-analysis of the deposited data

Results flagged for a closer look

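In liver 11 members were called by the interaction test, the daily difference in S714G mice minus that in controls on the log2 scale. Of the genes for ribosomal RNA transcription these were Polr1b (-1.52), Rrn3 (-1.11) and Polr1a (-0.96). Of the small subunit factors they were Ltv1 (-1.43), Wdr75 (-1.42), Nop14 (-1.29) and Wdr43 (-1.29), and of the snoRNP genes Rrp9 (-0.95) and Fbl (0.80). The large subunit factors Gnl3 (-1.49) and Pes1 (1.41) went opposite ways, and the second Pes1 probe gave 0.39. Of all genes tested 31.2% were called by the same test, a share near that of the members. Slide was not balanced over the 4 groups: with slide as a fixed block 0 of the 11 were called (4 members at an unadjusted p under 0.05 by limma), and as a random block 2, Nop14 and Pes1. The dimmer Polr1b probe gave 1.23, the opposite sign. No member was called by limma for the adipose interaction (1 at an unadjusted p under 0.05), and no test of tissue by genotype by time was made.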

How the results depend on the processing

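With slide as a fixed block, members called were 0 for S714G against control liver at ZT1, 0 for time in control liver, 0 in S714G liver, 0 in control adipose and 0 for the liver interaction. As a random block they were 0, 6, 0, 0 and 2. The fixed block also turned the sign of Wdr75 (-0.30) and Ltv1 (-0.68) in liver at ZT1, Wdr75 for time in control liver (-0.031) and for the interaction (0.26), Nop58 in adipose at ZT13 (-0.050), Polr1b for time in control adipose (-0.084), and Rrn3 (-0.075) and Nop58 (-0.32) for time in S714G adipose. With the mean of all probes Polr1b turned to -0.027, -0.12 and -0.064 for time in control liver, control adipose and S714G adipose, and Pes1 to 0.10 for liver minus adipose. The Pes1 call in liver at ZT13 gave 0 under median scaling, no filter on dim probes, the mean of all probes and the replicate block. Without the filter, time in S714G liver gave 0, in control adipose 1 and the interaction 7. All 24 arrays in 1 fit gave 10 for time in control adipose and 6 in S714G adipose. Normexp correction gave 2 for the tissue difference of the genotype effect at ZT1. Without the 3 adipose arrays of the other title prefix the counts were 9 for time in control adipose, 10 in S714G adipose and 10 for that tissue difference, and Heatr1 turned to -0.076 in the adipose interaction. Shares of all genes called are not given here for the fits without the filter, with all 24 arrays, with normexp or without these arrays. Their counts are therefore not read as results about the members.

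Leaving out 1 array at a time gave 17 to 21 called for time in control liver, 0 to 1 in S714G liver, 10 to 17 in liver at ZT1, 0 to 1 at ZT13 and 7 to 14 for the interaction. It gave 0 to 3 for time in control adipose, 0 to 14 in S714G adipose, 21 to 23 for liver minus adipose and 0 to 7 for the genotype effect between tissues at ZT1. Both adipose genotype comparisons, the adipose interaction and the ZT13 tissue difference stayed at 0 to 0. The tissue difference at ZT1 reached 7 without S714G adipose ZT1 replicate 3. The causes of these shifts were not tested. Shares of all genes called are not given here for the fits that left out 1 array, so their counts are not read as results about the members.

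Samples sharing a replicate number did not deviate together: 2 of 24 pairs correlated over 0.1 (-0.58 to 0.24). The replicate block gave 0 for liver at ZT13 and 0 for time in control adipose, and counts within 1.5 times elsewhere.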
